A study of Mus musculus and Rattus norvegicus with 6 samples.

Results

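The eye miRNAs described here are those that mark the lens, the cornea and epithelia in general: miR-184, miR-203, miR-205 and the miR-200 family (miR-200a, miR-200b, miR-200c, miR-141 and miR-429). They were taken by number, with any letter or arm, from the 2 deposited tables of retinal miRNA counts. This gave 16 of 1915 names in the mouse table and 15 of 764 in the rat table, 31 of 2679 in all. At least 10 counts in every library of the species were found for 7 of the mouse and 9 of the rat names, and 3 names in each table were at 0 throughout (miR-141-5p, miR-200c-5p and miR-429-5p in mouse, and miR-200c-5p, miR-203a-5p and miR-203b-5p in rat). The retinas came from wild-type C57BL/6 mice and wild-type Sprague Dawley rats, 9 weeks old, with 3 libraries per species, called m1, m3 and m4 in mouse and r1, r2 and r4 in rat after the table columns. No treatment is named for either group. The protocol calls the triplicates biological samples but does not say whether a library holds the tissue of 1 animal, so p-values describe only how these libraries vary, part of which may be technical. Strain, count table and counting change together with the species and cannot be told apart from it.

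MicroRNAs are short RNAs cut from the 5p or 3p side of a hairpin, and they lower the output of messenger RNAs that pair with their seed, the bases near the 5′ end. Among the most abundant miRNAs of the lens and of the corneal epithelium is miR-184. In stratified epithelia such as skin and cornea, miR-205 is a marker of basal and progenitor cells, and miR-203 restrains p63 and promotes differentiation. The miR-200 family represses Zeb1 and Zeb2 and so helps keep cells epithelial. The neural retina is not an epithelium of this kind, but the lens, cornea, iris and ciliary epithelium lie close to it in the eye.

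The sequences show which members can share targets. They are mouse RefSeq entries of build GRCm38.p6, matched by name for all 8 main-arm members, 5′ to 3′, with the seed (bases 2 to 8) in capitals.
mmu-miR-184-3p: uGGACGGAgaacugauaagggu
mmu-miR-203-3p: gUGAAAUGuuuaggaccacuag
mmu-miR-205-5p: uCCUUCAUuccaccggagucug
mmu-miR-200b-3p: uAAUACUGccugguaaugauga
mmu-miR-200c-3p: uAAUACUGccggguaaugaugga
mmu-miR-429-3p: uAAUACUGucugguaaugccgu
mmu-miR-200a-3p: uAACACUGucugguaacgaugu
mmu-miR-141-3p: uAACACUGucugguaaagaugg
Each of the first 3 has a seed of its own. The miR-200 family falls into 2 seed groups, AAUACUG (miR-200b, miR-200c and miR-429) and AACACUG (miR-200a and miR-141). From miR-200b-3p to miR-200a-3p the seed changes only by U4C, counted from 1 at the 5′ end. From miR-200b-3p to miR-200c-3p, 2 of the 22 bases compared differ, U11G and A22G, both outside the seed.

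The seed groups cut across the genes. In GRCm38.p6 the hairpins of miR-200b, miR-200a and miR-429 follow each other on the minus strand of chromosome 4, with 696 and 909 bases from the end of one hairpin to the start of the next (miR-200b at chr4:156055681-156055750). All 3 lie in introns of Ttll10, and miR-429 also overlaps an exon of the noncoding transcript Gm13648. The hairpins of miR-200c (chr6:124718322-124718390) and miR-141 are 337 bases apart by the same measure on chromosome 6, within introns of the antisense gene Gm15884. The hairpin of miR-205 (chr1:193507463-193507530) overlaps an exon of the lincRNA 4631405K08Rik. Those of miR-184 (chr9:89802260-89802328) and miR-203 (chr12:112130880-112130955) are intergenic. These positions describe the mouse genome, and the build behind the counts is not given in the sources used here.

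The libraries held 24169628 to 30514632 counts. The labelled tissue was checked by the photoreceptor miRNAs miR-183, miR-96 and miR-182. Their summed level was 360804 to 488456 CPM, the counts scaled to a common library total, so photoreceptor markers were abundant in every library. The members together made up 0.0457% to 0.139% of mouse counts and 0.130% to 0.948% of rat counts. Rat library r1 stood apart from r2 and r4 in its whole profile, and its TMM scaling factor was 0.757 against 1.36 in r2 and 1.29 in r4 (0.890 to 0.921 in mouse). A rat value can therefore shift with the scale, so 2 scales are used. The first is CPM of the 547 names joined between the species, scaled by TMM and called scaled CPM. The second is CPM of all counts in the library's own table, called own-total CPM.

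By mean level the order in both species began with miR-184, miR-203 and miR-200b and ended with miR-429 and miR-141, while miR-205, miR-200a and miR-200c lay between and overlapped each other within their spread. Capture differs between small RNAs, so levels of different miRNAs compare only roughly. Of these miRNAs, miR-184 was the most abundant and, in rat, the most uneven. In mouse, scaled CPM of miR-184-3p was 1953 in m1, 456 in m3 and 1478 in m4. In rat, where the name is miR-184 without an arm, it was 19158 in r1, 1862 in r2 and 1287 in r4. Library r1 thus lay far above every other library, while r2 and r4 lay within the mouse range, so the species overlapped. On own-total CPM only r4 at 1119 lay within the mouse range, and r2 at 1761 was above the highest mouse library, m1 at 1246. The counts behind these levels were large, from 9399 in m3 to 226444 in r1, so counting error is small beside the gaps. By mean own-total CPM, miR-184 ranked 58 of 1915 names in mouse and 34 of 764 in rat.

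The mean difference of miR-184-3p, rat against mouse, was 2.52 ± 1.07 on the log2 scale (SE; edgeR quasi-likelihood test, Benjamini-Hochberg adjusted p = 0.0874) and was not called. Without r1 it was 0.29 (adjusted p = 0.598). Without r2 or r4, so with more weight on r1, it was 2.91 or 2.89 and was called (adjusted p = 0.0359 and 0.0350). The species difference of miR-184 therefore rests on 1 library. The passenger arm miR-184-5p, counted only in the mouse table, had 4, 5 and 3 counts, or 0.0167% of the hairpin's reads.

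**Figure D1:**
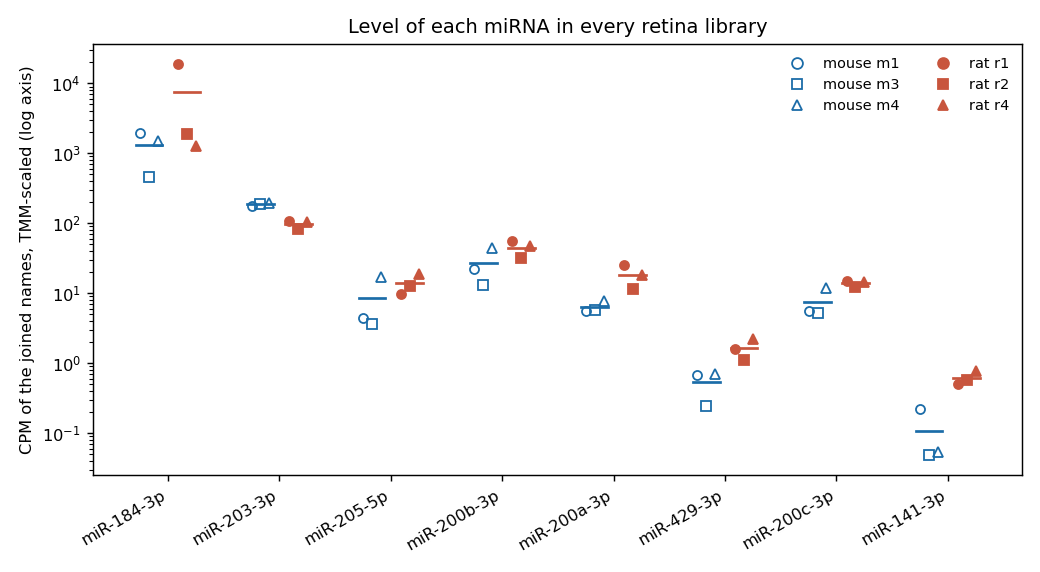
Level of the main arm of each hairpin in every library. The vertical axis is scaled CPM on a log axis, points are single libraries (open blue for mouse, filled red for rat) and short bars are the means of 3 libraries. Rat r1 stands at 19158 for miR-184-3p, while the 3 mouse points of miR-203-3p nearly coincide.

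In contrast to miR-184, the keratinocyte miRNA miR-203 was even within each species. Scaled CPM of miR-203-3p was 178 in m1, 190 in m3 and 193.6 in m4. In rat, under the name miR-203a-3p, it was 106 in r1, 82.9 in r2 and 105 in r4. Every rat library lay below every mouse library. It fell by 0.93 ± 0.14 (SE) on the log2 scale in rat (edgeR adjusted p = 0.00142) and is the only member called lower among those that passed the filter on low counts. With library totals alone in place of TMM the log2 difference was -0.63 and was not called (adjusted p = 0.0565). The sequences behind the names were not compared, so a difference in how each table names or counts miR-203 was not tested.

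The 5p arm of miR-203 had 1, 7 and 4 counts in mouse and 0 in all 3 rat libraries, beside 5828 rat counts of the 3p arm, which allows a 5p share of up to 0.0515%. The mouse share was 0.112%. With no filter on low counts this arm was past the threshold as lower in rat (edgeR adjusted p = 0.0250), but its fitted difference depends on the prior count, since every rat library is at 0, and is not given. The rat table also lists miR-203b. In mouse RefSeq, miR-203b-3p lies on the strand opposite miR-203-5p and pairs with it over 20 bases, shown in capitals, which is why the 2 are printed together.
mmu-miR-203b-3p: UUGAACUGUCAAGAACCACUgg
mmu-miR-203-5p: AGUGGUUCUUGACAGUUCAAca
Rat miR-203b-3p had 10 counts in r1, 25 in r2 and 37 in r4, far below the 1258, 1984 and 2586 of miR-203a-3p.

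The corneal and basal-cell miRNA miR-205 was scarce and uneven in mouse. Scaled CPM of miR-205-5p was 4.45 in m1, 3.69 in m3 and 17.1 in m4. In rat, where it is listed as miR-205, it was 9.65 in r1, 12.7 in r2 and 19.1 in r4. Library m4 lay among the rat values and the other mouse libraries below them. The m4 count of 322 had a 95% Poisson interval of 288 to 359, and the 79 of m1 one of 62.5 to 98.5, so the gap exceeds counting error. The log2 difference of 0.72 ± 0.59 (SE) was not called (edgeR adjusted p = 0.341). Without m4 it was 1.73 and was called (adjusted p = 0.0147). The minor arm miR-205-3p had 1, 0 and 4 counts in mouse.

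Within the miR-200 family, miR-200b was the most abundant, miR-200a and miR-200c came next, and miR-429 and miR-141 were near the detection limit. Scaled CPM of miR-200b-3p was 22.2 in m1, 13.3 in m3 and 44.6 in m4, and 56.5 in r1, 31.5 in r2 and 47.1 in r4. The species overlapped, through m4. The log2 difference of 0.75 ± 0.43 (SE) was not called (edgeR adjusted p = 0.181), and without m4 it was 1.28 and called (adjusted p = 0.0243).

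Its neighbour on the same transcript, miR-200a, was higher in rat. Scaled CPM of miR-200a-3p was 5.63 in m1, 5.72 in m3 and 7.87 in m4, against 25.6 in r1, 11.6 in r2 and 18.2 in r4. All rat libraries lay above all mouse libraries. It rose by 1.52 ± 0.31 (SE) on the log2 scale (edgeR adjusted p = 0.00526) and was called in every alternative run, with values from 1.21 without r1 to 1.74 with library totals alone. The 5p arm, miR-200a-5p, was at 1.80, 0.824 and 2.02 scaled CPM in the mouse libraries and 11.5, 2.34 and 3.34 in rat. Its difference of 1.84 ± 0.66 (SE; edgeR adjusted p = 0.0513) narrowly missed the threshold. It was called with library totals alone (adjusted p = 0.0164), DESeq2 (0.00702), no filter (0.0369) and identical names only (0.0314), and when r1, r2 or r4 was left out, but not without m1, m3 or m4. Without r1 the difference was 0.88 (adjusted p = 0.0434).

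The third miRNA of this cluster, miR-429, was near the detection limit in both species. The counts of miR-429-3p were 12 in m1, 5 in m3 and 13 in m4, and those of rat miR-429 were 19 in r1, 27 in r2 and 55 in r4. The mean scaled CPM was 0.536 ± 0.255 over the mouse libraries and 1.66 ± 0.559 over the rat libraries (SD, n = 3 each), without overlap. The log2 difference was 1.64 ± 0.44 (SE; edgeR adjusted p = 0.0181), and without r4 it was 1.27 and not called (adjusted p = 0.0634). At the filter's cutoff were all 3 rat but only 2 mouse libraries, and the filter needs 3, so the rat libraries helped it to be tested. With no filter the difference was 1.58 (adjusted p = 0.0157).

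On the other cluster, scaled CPM of miR-200c-3p was 5.57 in m1, 5.24 in m3 and 11.7 in m4, and 15.1 in r1, 12.2 in r2 and 14.6 in r4. The groups did not overlap on this scale, but on own-total CPM r1 at 7.36 lay below m4 at 7.81. The log2 difference of 0.89 ± 0.32 (SE) just missed the threshold (edgeR adjusted p = 0.0528). It was called without m4 (1.31, adjusted p = 0.00510), without r1 (0.84, adjusted p = 0.0378), without r2 (0.96, adjusted p = 0.0453), with DESeq2 (0.87, adjusted p = 0.0252) and with library totals alone (1.19, adjusted p = 0.0417). It was also called with no filter (0.84, edgeR adjusted p = 0.0410) and with identical names only (0.88, edgeR adjusted p = 0.0307). It was not called without m1, m3 or r4. Its cluster partner miR-141-3p had only 4, 1 and 1 counts in mouse and 6, 14 and 19 in rat, and did not pass the filter. With no filter its difference was 2.47 ± 0.59 and past the threshold (edgeR adjusted p = 0.00802), at 1 to 4 counts per mouse library. The 5p arm miR-141-5p had 0 counts in mouse and 2, 0 and 3 in rat.

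Of the 13 member names joined between the species, 8 passed the filter, of which 2 were called higher in rat (miR-200a-3p and miR-429-3p), 1 lower (miR-203-3p) and 5 not called. Leaving aside miR-429-3p, which needed rat libraries to be tested, 1 of 7 was called higher and 1 lower. With no filter 12 were tested, of which 5 were called higher and 2 lower. The 5 include miR-141-3p, at 1 to 4 counts per mouse library. Over all miRNAs in that setting 221 were called, 110 of them higher in rat. The number tested there, at most the 547 joined names, and the share called are not given here. Whether 5 of 12 is a larger share than over all miRNAs therefore cannot be read from these counts. Over all 400 miRNAs that passed the filter, 48.8% were called, 24.5% higher and 24.2% lower in rat, beside which 3 of 8 members is not a larger share. Between the species, 5 of the 8 did not overlap, 4 of them with all rat libraries above. Among these 4 is miR-429-3p, which needed rat libraries to be tested. Over all tested miRNAs, 61.8% did not overlap and 31.5% had all rat libraries above. The median log2 difference of the 8 was 1.21, beside 0.11 over all tested. Leaving aside miR-429-3p, the middle value of the other 7 was 0.89, that of miR-200c-3p. With library totals alone the median of all tested moved to 0.43, a shift against which each difference has to be read. On that scaling 125 of 167 calls were higher in rat, beside 98 of 195 with TMM.

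**Figure D2:**
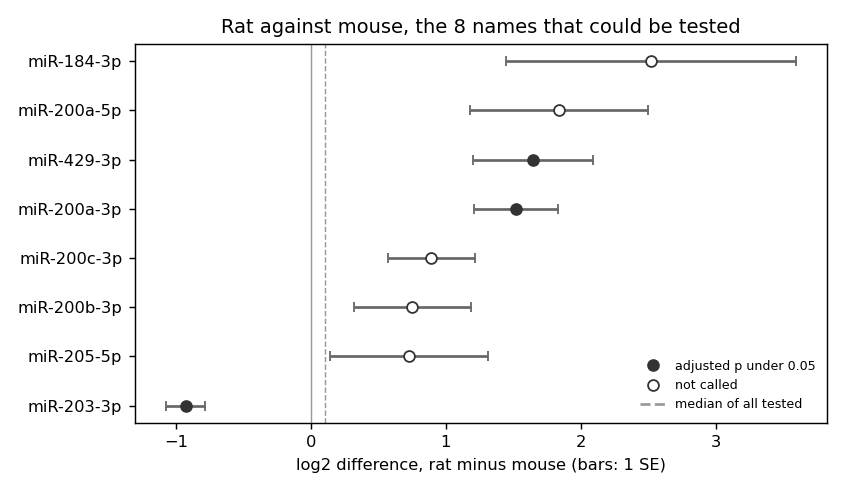
Log2 difference, rat minus mouse, of the 8 member names that passed the filter, with bars of 1 SE from the edgeR fit over 6 libraries. Filled points have an adjusted p under 0.05, and the dashed line is the median of all 400 tested miRNAs (0.11). The widest bar is that of miR-184-3p, and miR-203-3p alone lies below 0.

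Mouse libraries were otherwise close to each other, which makes the unevenness of these miRNAs stand out. Among the 262 mouse miRNAs of at least 10 scaled CPM, the highest library exceeded the lowest by a median factor of 1.11, and by 1.24 at the 90th percentile. For miR-184-3p the factor was 4.28, first of the 262, and for miR-200b-3p it was 3.35, second. Next came miR-351-5p with 2.44, a miRNA of another family named here only for this comparison. Among the 106 mouse miRNAs between 2 and 20 CPM, miR-205-5p ranked first (4.65, median 1.24), miR-200c-3p sixth (2.23, rank 6) and miR-200a-3p 25 (1.40). By contrast miR-203-3p, at 1.09, was below the median.

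Which library was high differed between members. In m4, scaled CPM of miR-205-5p was 4.21 times the mean of m1 and m3, that of miR-200b-3p 2.51 times and that of miR-200c-3p 2.16 times. For miR-200a-3p the factor was 1.39, for miR-184-3p 1.23 and for miR-203-3p 1.05, with 0.874 to 1.13 for the central 80% of miRNAs of at least 10 CPM. In m3, miR-184-3p was at 0.266 of the mean of m1 and m4, and miR-200b-3p at 0.398. So m4 was high in miR-205, miR-200b and miR-200c, m1 held the most miR-184, and m3 was the lowest mouse library for all 4, though close to m1 for miR-205 and miR-200c.

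**Figure D3:**
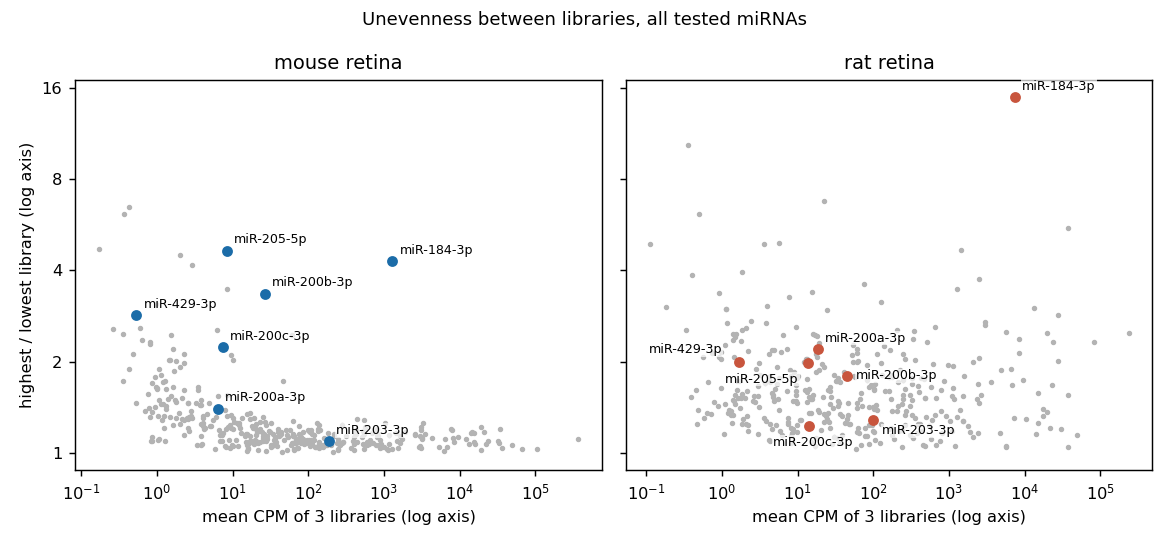
Highest over lowest library (log axis) against the mean scaled CPM (log axis) in mouse (left) and rat (right). Grey points are tested miRNAs with a count in every library, and coloured points are the main arms described here. In mouse, miR-184-3p (4.28), miR-200b-3p (3.35) and miR-205-5p (4.65) lie above the plotted miRNAs of like level, and in rat miR-184-3p (14.9) does.

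In rat the picture differed, because the libraries as a whole were less even. The median factor between the highest and lowest library was 1.51 over 264 miRNAs of at least 10 scaled CPM. With a factor of 14.9, miR-184-3p was first of the 264, ahead of miR-20b-5p with 6.77. On own-total CPM its factor was 8.37, second of 258 behind miR-20b-5p with 13.1. The other main arms lay between 1.23 (miR-200c-3p) and 2.21 (miR-200a-3p), inside the 90th percentile of 2.32. On own-total CPM miR-205 had a factor of 3.53, above the 90th percentile of 3.42 on that scale. The order of miR-200a-3p and miR-200c-3p reversed there, at 1.44 and 1.72. In r1, own-total CPM of miR-184 was 6.51 times the mean of r2 and r4, while that of miR-205 was 0.329 times, that of miR-203a-3p 0.612 times and that of miR-200b-3p 0.782 times. The median over miRNAs of at least 10 CPM was 0.608 on this scale. On scaled CPM the factors were 12.2 for miR-184, 0.606 for miR-205, 1.13 for miR-203a-3p and 1.44 for miR-200b-3p. On both scales r1 was highest of the rat libraries in miR-184 and lowest in miR-205. The central 80% of miRNAs of at least 10 CPM lay between 0.585 and 2.02 on scaled CPM and between 0.315 and 1.10 on own-total CPM, so miR-184 was outside this range in r1 and miR-205 inside it.

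**Figure D4:**
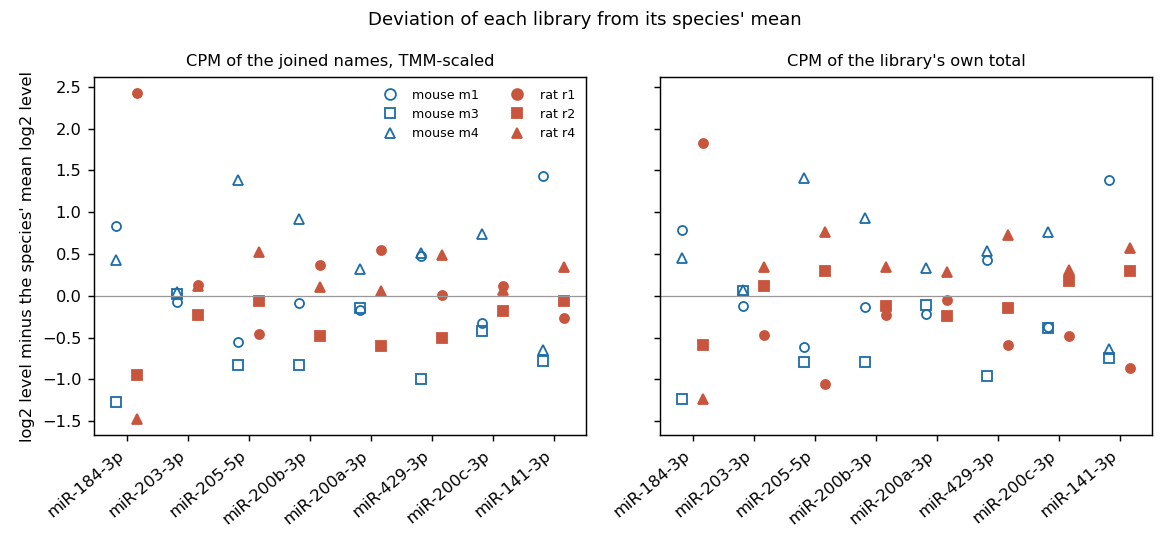
Deviation of each library from the mean log2 level of its species, for the main arm of each hairpin, on scaled CPM (left) and own-total CPM (right). Open blue points are mouse and filled red points rat libraries. Library r1 is high in miR-184-3p and low in miR-205-5p in both panels, while its place for the miR-200 family changes with the scale, and m4 is high in miR-205-5p, miR-200b-3p and miR-200c-3p in both.

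Ratios within a library do not depend on its scaling. The ratio of miR-184-3p to miR-205-5p was 439 in m1, 123.7 in m3 and 86.3 in m4, and 1986 in r1, 147 in r2 and 67.3 in r4. It spanned a wide and overlapping range in both species (exact two-sided permutation test on log2 ratios, p = 0.8, where 0.1 is the smallest p that 3 against 3 allow). The ratio of miR-205-5p to miR-200b-3p was far steadier, at 0.200, 0.277 and 0.384 in mouse and 0.171, 0.404 and 0.406 in rat. The ratio of miR-184-3p to miR-203-3p was 11.0, 2.40 and 7.63 in mouse and 180, 22.5 and 12.2 in rat, without overlap (exact p = 0.1).

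The 2 miR-200 clusters kept a like ratio across all 6 libraries. The cluster of miR-200b, miR-200a and miR-429 exceeded that of miR-200c and miR-141 by a factor of 4.92 in m1, 3.64 in m3 and 4.52 in m4, and by 5.38 in r1, 3.45 in r2 and 4.41 in r4. The ranges overlapped (exact p = 1). The summed family stood at 34.3, 24.5 and 64.9 scaled CPM in mouse and 99.3, 57.1 and 82.9 in rat, and here m4 and r2 overlapped (exact p = 0.2). Without overlap were the cluster of miR-200c and miR-141, at 5.80, 5.29 and 11.8 scaled CPM in mouse and 15.6, 12.8 and 15.3 in rat (exact p = 0.1), and the seed group AACACUG, at 5.85, 5.77 and 7.92 scaled CPM in mouse and 26.1, 12.2 and 19.0 in rat (exact p = 0.1). On own-total CPM the first 2 of these 3 verdicts swapped. There the summed family did not overlap (exact p = 0.1), but the cluster of miR-200c and miR-141 did (exact p = 0.2). The seed group AACACUG stayed without overlap (exact p = 0.1). The ratio of seed AAUACUG to AACACUG was 4.87, 3.25 and 7.19 in mouse and 2.80, 3.67 and 3.36 in rat (exact p = 0.3).

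**Figure D5:**
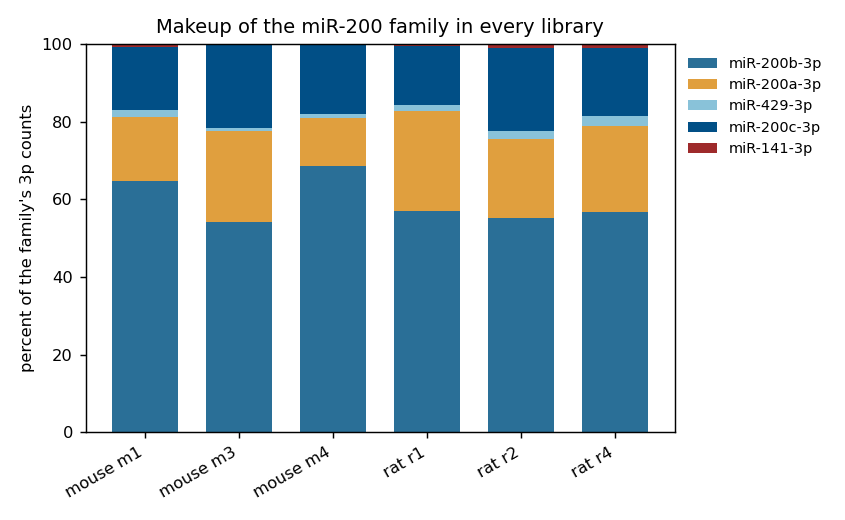
Share of each miR-200 family member in the family's 3p counts, in percent, for the 6 libraries (bars stack to 100%). In every library miR-200b-3p holds more than any other member, from 54.2% in m3 to 68.7% in m4. The share of miR-200a-3p runs from 12.1% in m4 to 25.8% in r1.

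In shares of the family's 3p counts, miR-200b-3p averaged 62.5% ± 7.52 over the mouse and 56.3% ± 0.977 over the rat libraries (SD, n = 3 each). The share of miR-200c-3p was 18.5% ± 2.59 and 18.1% ± 3.18. The share of miR-200a-3p was 17.3% ± 5.65 in mouse and 22.7% ± 2.79 in rat. In mouse it was lowest in m4, the library with the most miR-200b.

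The minor arm was used unevenly along the family. The 5p arm of miR-200a made up 24.2%, 12.6% and 20.4% of the hairpin's counts in m1, m3 and m4. In rat it made up 30.98% in r1 (exact 95% binomial interval 26.7 to 35.5), 16.8% in r2 (12.9 to 21.2) and 15.5% in r4 (12.5 to 18.9). Library r1 is outside the other rat intervals. For miR-200b the 5p share was only 1.18% in mouse and 1.19% in rat. The 5p arm of miR-200c had 0 counts beside 427 of the 3p arm in mouse and 828 in rat, which allows a share of up to 0.703% and 0.362%. Intervals and limits cover counting error only, since PCR copies are not independent molecules.

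Arm balance, the log2 ratio of 5p to 3p counts, was tested for 4 of these hairpins and called for none. The rat minus mouse difference was 0.15 ± 0.46 for miR-200a and -0.14 ± 0.44 for miR-200b (SE; limma adjusted p = 0.868 for both). For miR-203 it was -1.95 ± 0.57 (limma adjusted p = 0.0552) and for miR-200c -0.99 ± 0.42 (limma adjusted p = 0.153). The 5p arm of miR-203 was at 0 in rat, so the added 0.5 counts set the size of its difference. With 5 counts added the value for miR-203 was 0.14 (limma adjusted p = 0.783). The 5p arm of miR-200c was at 0 in every library of both species. Its difference therefore reflects the 3p counts alone, and the test cannot show a change of arm balance. Without m1 miR-203 was called (-2.52, limma adjusted p = 0.0169). Of all 170 hairpins tested, 24.1% were called, and 1 of these 4 (miR-203) had an unadjusted p under 0.05. The errors are wide. Even the miR-203 difference of -1.95 with an SE of 0.57 was not called, so changes well above 1 SE could be missed.

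The likeness of profiles over the 6 libraries is given as a description. It was measured as the root-mean-square difference of log2 scaled CPM after centring each profile on its mean. Among the members the closest pair was miR-200b-3p and miR-200c-3p at 0.27, encoded on different chromosomes but with 1 seed, whereas miR-200b-3p and its neighbour miR-200a-3p were at 0.48. Likeness did not follow seed or cluster throughout. At 0.41 were miR-200a-3p and miR-200c-3p, which share neither, and at 0.45 miR-205-5p and miR-200c-3p. With both seed and cluster shared, miR-200b-3p and miR-429-3p were at 0.55. Outside the members, the nearest of 270 candidates to miR-203-3p was miR-216b-5p at 0.09, and the nearest to miR-200a-3p was the neuroendocrine miR-375-3p at 0.25. Nothing came close to miR-184-3p, whose nearest profile, miR-379-5p, was at 1.04, and the nearest to miR-205-5p, miR-379-3p, was at 0.67.

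The summed level of other epithelial miRNAs was even in mouse, unlike miR-184 and miR-205. The summed level of miR-31, miR-375, miR-34b, miR-34c, miR-449a, miR-192, miR-194, miR-215 and miR-224 was 1762, 1764 and 1730 own-total CPM in m1, m3 and m4, and 3565, 3358 and 3807 in r1, r2 and r4. Abundant miRNAs such as miR-192-5p (mean 1658 scaled CPM in mouse) set most of this sum, so it does not show whether the scarcer ones were even. The scarce miR-224-5p was not, at 5.52, 11.6 and 11.3 scaled CPM in m1, m3 and m4. Of 9 tested names in this list, 2 rose, 3 fell and 4 were not called, with a median log2 difference of -0.40. The differences ran from -2.57 to 3.20, the highest being that of miR-224-5p. The islet and retinal miRNA miR-375-3p rose (1.51 ± 0.24, edgeR adjusted p = 0.00175) and miR-34c-5p, known from ciliated cells, fell by 0.76 ± 0.13 (edgeR adjusted p = 0.00286). The differences of the gut-enriched pair miR-192-5p (0.85 ± 0.34) and miR-194-5p (0.29 ± 0.17) were not called.

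Marker miRNAs of other tissues near or in the retina were summed in the same libraries. Retinal pigment epithelium miRNAs (miR-204 and miR-211) held 13846 to 16215 own-total CPM in mouse and 24663 (r1) to 31068 (r2) in rat. Striated muscle miRNAs, with 3 of 9 mouse and 3 of 8 rat names at 0, held 884 in m1, 793 in m3 and 642 in m4, and 67.3 in r1, 58.1 in r2 and 44.9 in r4. Red blood miRNAs (miR-451, miR-144 and miR-486) held 202.96 to 219 in mouse and 162 in r1 against 296 and 262 in r2 and r4, and endothelial miR-126 1322 in r1 against 2234 and 2087. Smooth muscle and mesenchyme miRNAs held 2751 to 3249 in mouse and 5439 to 6540 in rat, and neuronal miRNAs 85188 to 88777 in mouse and 77686 (r1) to 112736 (r4) in rat. The lens and cornea list itself (miR-184, miR-203 and miR-205) held 1363, 439 and 1127 in mouse and 9426, 1851 and 1227 in rat. In bulk tissue, fewer cells of a type and less RNA per cell cannot be told apart, and whether lens, cornea or other epithelium was carried into any library was not tested.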

How the data were processed

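Per the labels' protocols, retinal total RNA with miRNA was isolated (miRNeasy), and small RNA libraries were read on a HiSeq-2500 as single-end reads of 50 bases; this text names rat eyes for both species. The deposited values are raw counts of mature miRNAs, 1 table for each species. Which aligner and annotation release made them, and how reads with several matches were counted, is not given in the sources used here. Columns were mapped to species, not to numbered samples.

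Names identical after the species prefix (542) were joined, and 5 member pairs with unlike names were added: miR-184-3p with miR-184, miR-205-5p with miR-205, miR-203-3p and miR-203-5p with miR-203a, and miR-429-3p with miR-429. Rat sequences were not used here. In R 4.3.3, edgeR 4.0.16 compared abundance by its quasi-likelihood test, with filterByExpr, TMM scaling and species as the only term. Calls required a p below 0.05 after Benjamini-Hochberg adjustment across every miRNA tested. Arm balance was tested with limma 3.58.1 on log2((5p + 0.5)/(3p + 0.5)) for hairpins with at least 50 counts in every library. Sums and ratios were compared by exact permutation over libraries. The tests were also run on simulated counts that gave every miRNA the same spread and held no deviating library. That check does not cover libraries as uneven as those of rat here. Alternatives were library totals alone, DESeq2 1.42.0, no filter, identical names only, other arm settings, the other CPM scale and each library left out.

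The members and lists were chosen with earlier results of these data known. All members are accounted for. Named outside them are, by rule, the nearest profiles and the most abundant miRNAs of the other epithelial list. After their values were seen, miR-351-5p, miR-20b-5p and miR-224-5p were named and the range of 2 to 20 CPM was set. Markers of photoreceptors, neurons, pigment epithelium, blood, endothelium, smooth and striated muscle were summed per library.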

Additional observations from a re-analysis of the deposited data

Results flagged for a closer look

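Rat miR-203b-3p entered no comparison, since it was joined to no mouse name, and it was above the limit of 3 counts that a count of 0 allows in each rat library. It had 10 counts in r1, 25 in r2 and 37 in r4. On own-total CPM this is 0.905 ± 0.455 (SD, n = 3).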

How the results depend on the processing

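All 76 values of the 8 members' log2 differences under alternatives kept their direction; 18 passed the threshold that the main value missed, and 2 lost it: miR-203-3p with library totals alone and miR-429-3p without r4. The number of members called higher, 2 with all libraries, was 4 with library totals alone and with DESeq2, 5 with no filter, 3 with identical names only, and 3 to 6 when 1 library was left out (6 without m4, 5 without r1 or r2), counting every member that each setting tested. The members tested also changed, being 8 in the main run and 12 with no filter. Identical names only left out miR-184-3p, miR-203-3p, miR-205-5p and miR-429-3p. Over all miRNAs, 98 of 400 tested (24.5%) were called higher in the main run. This was 125 with library totals alone, 107 with DESeq2, 110 with no filter and 102 with identical names only. It was 77 to 151 when 1 library was left out, most without r1. The number of miRNAs tested in each alternative is not given here, so these are counts and not shares. For arm balance, 24 to 63 hairpins were called when 1 library was left out, against 41. Leaving 1 library out, the difference of miR-200a arm balance ran from -0.26 to 0.39 and that of miR-200b from -0.47 to 0.18. That of miR-203, -1.95, was 0.14 with 5 counts added to each arm. The log2 species difference of within-library ratios changed sign when 1 library was left out for the miR-200 cluster ratio (-0.15 to 0.17), miR-200b-3p to miR-200c-3p (-0.31 to 0.045), miR-205-5p to miR-200b-3p (-0.10 to 0.55) and miR-184-3p to miR-205-5p (-0.75, without r1, to 1.69). On own-total CPM the highest to lowest rat library changed to 1.76 for miR-203-3p, 3.53 for miR-205-5p and 8.37 for miR-184-3p. This factor fell from 2.21 to 1.44 for miR-200a-3p. It rose from 1.23 to 1.72 for miR-200c-3p and from 1.53 to 2.71 for miR-141-3p. The causes were not tested. DESeq2 gave no adjusted p for miR-184-3p. No paired analysis was possible because the table columns do not carry the replicate numbers of the labels, and the species share no animals. Depth limits miR-429, miR-141 and the 5p arms, which have few counts.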
